A study of Saccharomyces cerevisiae with 24 samples.

Results

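The expression of 9 genes that regulate transcription of the ribosomal protein (RP) genes was examined in 12 comparisons of yeast strains and treatments. The genes are *RAP1*, *FHL1*, *HMO1*, *IFH1*, *CRF1*, *SFP1*, *SCH9*, *TOR1* and *TOR2*. They were found by the name printed for each spot or by the current name of its open reading frame (ORF), which gave 1 spot for each gene among the 6307 ORF spots of the array.

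The data are 24 two-color spotted arrays, 2 with reversed Cy3 and Cy5 labeling for each comparison, hybridized with labeled cDNA of mRNA from *Saccharomyces cerevisiae*. All strains were BY4741 or isogenic deletions marked with *kanR*, cultured in YPD medium (30°C, A600 near 0.2) unless stated otherwise. Each of the wild-type and *med20Δ* strains was compared with and without rapamycin (0.2 µg/ml for 1 h), an inhibitor of TOR complex 1. The *med20Δ* strain lacks a head module subunit of Mediator, the coactivator that links transcription factors to RNA polymerase II, and was compared with wild-type in 7 conditions. These were untreated cells, rapamycin, tunicamycin (2.5 µg/ml for 90 min), chlorpromazine (CPZ) for 1 h, hydrogen peroxide (0.32 mM for 30 min), a shift from 29°C to 39°C for 20 min, and growth for 48 h from an OD600 of 0.01 past the diauxic shift. The CPZ dose is 250 µM in the methods and 250 mM in the sample labels. The *med16Δ*, *med31Δ* and *cycCΔ* strains, which lack a tail, a middle and a Cdk module subunit, were each compared with wild-type after rapamycin. In these strain comparisons both channels held cells given the same treatment.

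Rap1 binds most RP promoters and, with it, the forkhead-like protein Fhl1 and the HMG-box protein Hmo1. Fhl1 carries the coactivator Ifh1, or the corepressor Crf1 in some strain backgrounds, and the zinc finger protein Sfp1 also activates RP and ribosome biogenesis genes. TOR complex 1, built on Tor1 or Tor2, acts on these factors partly through the kinase Sch9, largely by phosphorylation and by a change of place in the cell, which arrays of mRNA do not measure.

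Values are log2 ratios, the mean of a pair of arrays with replicate 1 and replicate 2 in parentheses. The numerator is the deletion strain or the rapamycin-treated cells. Since no source states whether the 2 arrays of a pair held separate cultures, each pair was counted as 1 replicate and a gene was called changed at 2-fold on the mean. A fit with limma that takes each array as a sample is given beside it. Its p-values measure only the spread between arrays, which may be technical and which is pooled for each gene over all comparisons. They were adjusted over all genes.

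Over all ORF spots, median background-subtracted intensities of the channels were 82.5 to 1072.5, and 65.3% to 96.4% of spots exceeded the 95th percentile of the 29 spots without a gene name (the unnamed spots). Across genes, r between replicate 1 and replicate 2 was 0.231 to 0.917, and genes are not independent replicates. The 6 arrays of *med16Δ*, *med31Δ* and *cycCΔ* stood apart from the other 18. Log2 intensities correlated with a median of 0.877 among the 18, 0.927 among the 6 and 0.465 between the sets. Of 4811 ORF spots above the unnamed spots in both channels of all 18 arrays, 501 were above them in 3 or fewer of the 12 channels of the 6. The deleted gene was below 0 on the arrays of its strain, with *MED20* at -0.26 to -0.89 over its 7 comparisons (14 of 14 arrays), *MED16* at -0.67 (-0.68, -0.66), *MED31* at -1.05 (-0.86, -1.25) and *SSN8*, which encodes cyclin C, at -0.88 (-0.95, -0.81).

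This difference between array sets reached 3 of the 9 regulators. *IFH1* (YLR223C) exceeded the unnamed spots in 36 of 36 channels of the 18 arrays, at net intensities of 210.5 to 8838.5, and in 2 of 12 channels of the 6, at 1.5 to 19.5. *HMO1* (YDR174W) did so in 36 of 36 channels (428.5 to 4755.0) and in 1 of 12 (3.0 to 112.0). *CRF1* (YDR223W) was as bright on the 18 arrays (94.0 to 5670.5) but carried a flag on every one, and on the 6 arrays it was not flagged but in 0 of 12 channels above the unnamed spots (-1.0 to 14.0). Therefore *CRF1* had no usable ratio in any comparison, and *HMO1* had none in the other Mediator deletions. *IFH1* had 1 there, in *med16Δ*, where only 2 of its 4 channels exceeded the unnamed spots. *RAP1* (YNL216W), *FHL1* (YPR104C), *SFP1* (YLR403W), *SCH9* (YHR205W), *TOR1* (YJR066W) and *TOR2* (YKL203C) were above them in all channels of all 24 arrays. *IFH1* and *CRF1* are paralogs, as are *TOR1* and *TOR2*, and their transcripts may hybridize to both spots of a pair.

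**Figure D1:**
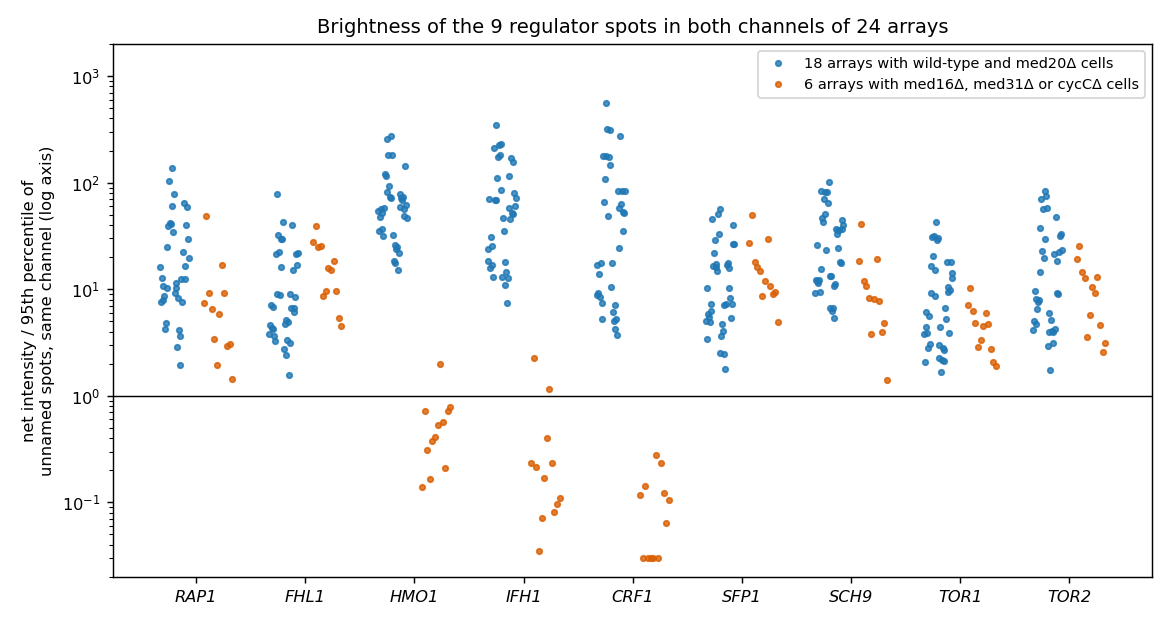
Net intensity of each regulator spot relative to the 95th percentile of that channel's unnamed spots, on a log axis, with 1 point per channel and ratios under 0.03 drawn at 0.03. *HMO1*, *IFH1* and *CRF1* lie above the line at 1 in 36 of 36 channels of the 18 arrays, and in 1, 2 and 0 of 12 channels of the 6 arrays, while the other regulators lie above it throughout.

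Of 108 possible values (9 genes in 12 comparisons), 91 came from unflagged spots above the unnamed spots in at least 2 of 4 channels. None of the 91 reached 2-fold, and the largest was 1.57-fold. This does not bound the change in mRNA. *MED20*, absent from its deletion strain, was itself at -0.26 to -0.89, under 2-fold in every comparison. Of the other deleted genes, *MED16* (-0.67) and *SSN8* (-0.88) stayed under 2-fold and *MED31* (-1.05) passed it. Shares of all genes, here and below, are over unflagged spots without the brightness limit set for the regulators, so the bases are unlike. The share of all genes past 2-fold was 10.1% for the rapamycin response of wild-type and 8.76% for that of *med20Δ*. Between *med20Δ* and wild-type it was 0.928% untreated, 3.92% with rapamycin, 3.30% with CPZ, 2.60% with tunicamycin, 4.36% with hydrogen peroxide, 2.84% with heat and 2.87% after the diauxic shift. For *med16Δ*, *med31Δ* and *cycCΔ* it was 0.236%, 0.843% and 0.641%. The limma intervals (95%) of 89 of the 91 values lay within 2-fold either way, and the 2 that reached beyond it were both of *HMO1*. How many intervals of all genes lay within 2-fold was not counted. The intervals cover only the spread between arrays, which may be technical, so they do not bound the change in mRNA either. For every gene the spread is pooled over all comparisons, so an interval is not that of its own 2 arrays alone. For *IFH1* and *HMO1* the pool takes in *med31Δ* and *cycCΔ* arrays on which the spot did not exceed the unnamed spots. By limma, 7 of the 91 values had an adjusted p under 0.05, all of them of *RAP1*, *SFP1* or *FHL1*, and 23 had an unadjusted p under 0.05. The share of all genes with an unadjusted p under 0.05 was 37.9% for the rapamycin response of wild-type and 36.2% for that of *med20Δ*. Between *med20Δ* and wild-type it was 17.2% untreated, 22.6% with rapamycin, 26.5% with CPZ, 18.2% with tunicamycin, 29.9% with hydrogen peroxide, 24.6% with heat and 28.2% after the diauxic shift. For *med16Δ*, *med31Δ* and *cycCΔ* it was 5.70%, 11.6% and 11.0%. The regulators' 23 of 91 values come from all of these comparisons and are to be read against all of these shares.

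The response to rapamycin was first asked for in wild-type cells, where RP genes serve as the reference. The median log2 ratio of 127 RP genes was -3.09, and 120 were past 2-fold downward, as were 6.20% of all genes. In *med20Δ* the median of 128 RP genes was -1.18, with 86 past 2-fold downward, beside 5.57% of all genes. The ratios of the regulators lay nearer to 0 than these medians in both strains, and only *RAP1* passed 1.5-fold (1 of 8 regulators in each strain, against 23.0% and 21.9% of all genes). The processing draws ratios of dim spots toward 0. In other settings the *RAP1* ratio reached -0.88 in wild-type and -0.87 in *med20Δ*. By limma, 1 regulator passed in wild-type, where 29.3% of all genes did, and 2 passed in *med20Δ*, where 26.3% did.

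*RAP1* mRNA was lowered by rapamycin in wild-type, with a ratio of -0.64 (-0.61, -0.67) and an adjusted p of 0.00098 (limma). In *med20Δ* it was -0.65 (-0.78, -0.51), with an adjusted p of 0.00106 (limma). All 4 arrays were below -0.5, and the responses of the strains differed by -0.01 with a standard error of 0.18. The direct comparison of the treated strains gave 0.00 (0.06, -0.06), and the other 3 comparisons together gave -0.24. A fall of this size was shared with many genes, since 10.8% of all genes in wild-type and 10.7% in *med20Δ* lay below *RAP1*.

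*FHL1*, the partner of Ifh1 at RP promoters, had ratios of -0.13 (-0.26, -0.00) in wild-type and -0.22 (-0.30, -0.14) in *med20Δ*. Both were below 0 on both arrays, and neither passed limma (adjusted p = 0.45 and 0.18). For *HMO1*, which also binds ribosomal DNA, wild-type gave -0.35 (-0.05, -0.65) and *med20Δ* 0.04 (0.04, 0.04). The arrays of wild-type lay on the same side but 0.61 apart, and the difference between the strains, 0.39 with a standard error of 0.30, did not pass limma (adjusted p = 0.70).

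*IFH1* was at 0.22 (0.06, 0.37) in wild-type and at -0.21 (-0.22, -0.20) in *med20Δ*. The strains were thus on opposite sides of 0 on all 4 arrays, as they were for *HMO1* and for 8.57% of all genes. The difference of -0.43, with a standard error of 0.27, did not pass limma (adjusted p = 0.57), where 2.31% of all genes did. *SFP1* was above 0 on all 4 arrays, at 0.22 (0.15, 0.29) in wild-type and 0.37 (0.22, 0.52) in *med20Δ*. The latter passed limma with an adjusted p of 0.047, which became 0.087 in a fit without the 6 arrays of the other Mediator deletions.

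Among the kinases, *SCH9* was at 0.01 (0.03, -0.01) in wild-type and 0.06 (-0.11, 0.23) in *med20Δ*. The limma intervals (95%) were -0.33 to 0.34 and -0.28 to 0.39. *TOR1*, the non-essential TOR kinase gene, was at -0.27 (-0.24, -0.31) in wild-type and 0.02 (0.06, -0.02) in *med20Δ*. *TOR2*, whose product also forms TOR complex 2, was at -0.24 (-0.14, -0.33) and -0.22 (-0.17, -0.27). Thus both TOR genes were below 0 on both wild-type arrays, and none of these values passed limma (adjusted p = 0.12 for *TOR1* and 0.22 for *TOR2* in wild-type). With a dye term in the limma fit, *TOR2* in wild-type had an adjusted p of 0.049, and without the arrays of the other Mediator deletions 0.29.

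**Figure D2:**
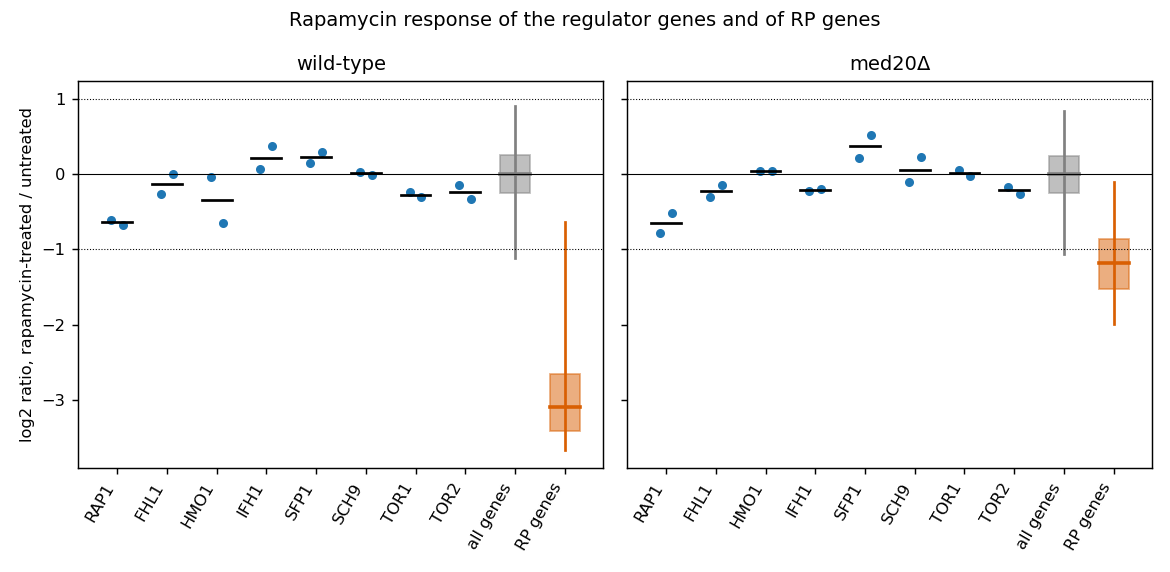
Log2 ratio of rapamycin-treated to untreated cells in wild-type (left) and *med20Δ* (right), with 1 point per array and a bar at the mean of the pair, and dotted lines at 2-fold. Boxes show the quartiles of all genes and of RP genes, with their median and whiskers at the 5th and 95th percentiles. The regulators lie between -0.65 and 0.37, whereas the RP medians are -3.09 and -1.18.

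The difference between the treated strains can be had directly or derived from the other 3 comparisons, as the untreated ratio plus the *med20Δ* response minus the wild-type response. Derived and direct ratios were close for *SCH9* (0.07 and 0.07), *TOR2* (0.20 and 0.16) and *FHL1* (-0.04 and -0.11). They were apart for *HMO1* (0.97 and 0.30), *IFH1* (-0.72 and -0.28) and *SFP1* (0.01 and -0.39). For *RAP1* they were -0.24 and 0.00, and for *TOR1* 0.09 and -0.13, on different sides of 0. Over 5647 genes the derived minus the direct ratio had an SD of 0.41, and for *HMO1* this gap, 0.66, was larger in size than for 90.7% of genes.

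The comparisons of *med20Δ* with wild-type addressed whether loss of Med20 alters the regulators themselves. In these 7 comparisons 56 values were usable, and 4 passed limma. The share of all genes that passed was 3.31% untreated, 10.6% with rapamycin, 14.2% with CPZ, 6.30% with tunicamycin, 18.7% with hydrogen peroxide, 11.4% with heat and 14.3% after the diauxic shift. The median log2 ratio of RP genes was 1.42 with rapamycin, 1.22 with tunicamycin, 0.58 with CPZ, 0.48 after the diauxic shift, 0.13 in untreated cells, -0.07 with heat and -0.28 with hydrogen peroxide. The number of comparisons with both arrays on the same side of 0 is given below for some regulators. How often all genes did so was not counted, and all 7 comparisons share the *med20Δ* strain, so these counts are only descriptive.

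*SFP1* was lower in *med20Δ* with CPZ, at -0.57 (-0.39, -0.74) with an adjusted p of 0.0076 (limma), and with heat, at -0.52 (-0.43, -0.62) with an adjusted p of 0.015 (limma). Ratios of -0.39 (-0.32, -0.45) with rapamycin and -0.28 (-0.37, -0.19) with tunicamycin did not pass (adjusted p = 0.073 and 0.26, limma). The former had an adjusted p of 0.047 with a dye term in the limma fit. Without the arrays of the other Mediator deletions the limma values were 0.022 with CPZ, 0.041 with heat, 0.14 with rapamycin and 0.38 with tunicamycin. Both arrays were below 0 in 5 of 7 comparisons, the untreated one included, at -0.13 (-0.23, -0.03). Hydrogen peroxide gave the opposite sign, 0.31 (0.21, 0.40), and after the diauxic shift the arrays disagreed (0.17 and -0.37).

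*FHL1* was lower in *med20Δ* with hydrogen peroxide, at -0.40 (-0.36, -0.44) with an adjusted p of 0.021 (limma), and at -0.63 when the local background was subtracted. It was also lower after the diauxic shift, at -0.38 (-0.29, -0.46) with an adjusted p of 0.036 (limma). These 2 became 0.028 and 0.049 in the limma fit without the arrays of the other Mediator deletions. With heat *FHL1* was at -0.32 (-0.35, -0.29), which did not pass (adjusted p = 0.081, limma). The authors' normalized ratios gave 0.03 there. With CPZ it was at -0.22 (-0.22, -0.22), or -0.56 by the authors' ratios, and with tunicamycin at -0.14 (-0.25, -0.03). Thus both arrays were below 0 in 5 of 7 comparisons, and the untreated cells gave 0.05 (0.10, 0.01).

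*HMO1* did not pass limma in any of the 7 comparisons. It was at 0.58 (0.13, 1.02) in untreated cells and 0.58 (0.51, 0.65) with tunicamycin (adjusted p = 0.17 and 0.15), and one array of untreated cells was past 2-fold while the other was nearer 0. After the diauxic shift it was at 0.35 (0.39, 0.31), with CPZ at 0.22 (0.39, 0.04) and with rapamycin at 0.30 (-0.00, 0.60). Hydrogen peroxide gave -0.26 (0.05, -0.58) and heat -0.13 (-0.01, -0.25). Hence *HMO1* was above 0 on both arrays in 4 of 7 comparisons and below 0 on both in 1.

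*RAP1* was at -0.23 (-0.10, -0.37) in untreated cells, -0.30 (-0.11, -0.49) with tunicamycin and 0.33 (0.25, 0.42) after the diauxic shift. None of these passed limma, and the remaining 4 conditions lay between -0.15 and 0.05. *IFH1* ranged from -0.28 to 0.31, and in untreated cells its arrays were on opposite sides of 0 (0.19 and -0.76). *IFH1* was above 0 on both arrays with hydrogen peroxide, at 0.31 (0.23, 0.39), with heat, at 0.17 (0.29, 0.05), and after the diauxic shift, at 0.10 (0.19, 0.02), where the authors' ratios gave -0.13.

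*SCH9* ranged from -0.22 (-0.13, -0.31) with CPZ to 0.17 (0.13, 0.22) with hydrogen peroxide, where the authors' ratios gave -0.10. *TOR1* ranged from -0.30 (-0.46, -0.14) after the diauxic shift to 0.14 (-0.08, 0.37) with heat. *TOR2* was at 0.41 (0.15, 0.67) with CPZ, with an adjusted p of 0.055 (limma). This became 0.021 with the replicate block, 0.0046 with a dye term and 0.099 without the arrays of the other Mediator deletions. After the diauxic shift *TOR2* was at -0.33 (-0.50, -0.17), with an adjusted p of 0.11 (limma). That became 0.015 with a dye term and 0.17 without the arrays of the other Mediator deletions. With CPZ the 2 TOR genes were thus on different sides, since *TOR1* was at -0.13 (-0.29, 0.02). The *TOR2* spot read higher on the array with the numerator in Cy5 in 12 of 12 comparisons, by a median of 0.21. An offset that follows the dye in this way cancels in the mean of a pair.

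**Figure D3:**
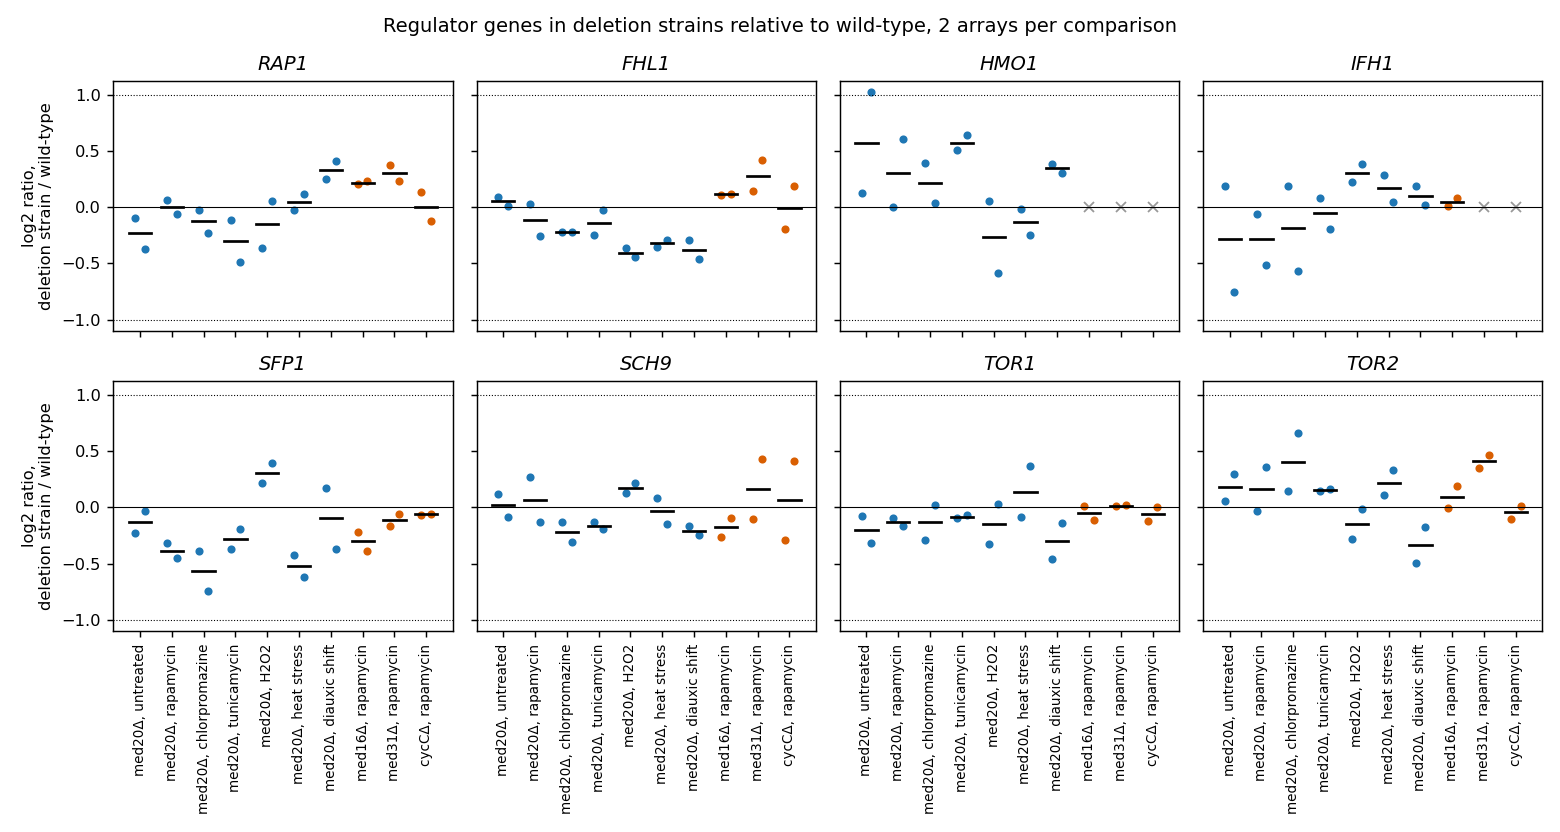
Log2 ratio of each regulator in deletion strains relative to wild-type, with 1 point per array (*med20Δ* in blue, the other deletions in orange), a bar at the mean of the pair, crosses where fewer than 2 of 4 channels exceeded the unnamed spots and dotted lines at 2-fold. Only 1 array of *HMO1* in untreated cells (1.02) crosses a dotted line.

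After rapamycin the other Mediator deletions gave 19 usable values, of which 0 passed limma and 4 had an unadjusted p under 0.05. Of all genes, 0.456% in *med16Δ*, 2.72% in *med31Δ* and 2.17% in *cycCΔ* passed limma, and 5.70%, 11.6% and 11.0% had an unadjusted p under 0.05. These shares take in dim spots that the 19 values leave out, so the 4 of 19 has no like base. On these arrays 65.3% to 85.2% of spots exceeded the unnamed spots. The median of RP genes was 0.44 in *med16Δ*, -0.01 in *med31Δ* and 0.06 in *cycCΔ*. The 4 values were *SFP1* in *med16Δ*, at -0.30 (-0.22, -0.39), and *TOR2*, *RAP1* and *FHL1* in *med31Δ*, at 0.41 (0.35, 0.47), 0.31 (0.38, 0.24) and 0.28 (0.14, 0.42). *TOR2* in *med31Δ* had an adjusted p of 0.15 (limma), or 0.015 with a dye term. *SFP1* was also below 0 on both arrays in *med31Δ*, at -0.11 (-0.16, -0.06), and in *cycCΔ*, at -0.06 (-0.07, -0.05), as it was in *med20Δ*. In *med31Δ* and *cycCΔ* its unadjusted p was 0.40 and 0.64 (limma). How often all genes had the same sign over these strains was not counted. The 3 genes named for *med31Δ* were above 0 on both arrays. In *med16Δ* *RAP1* was at 0.22 (0.21, 0.23). In *cycCΔ* the 6 measured regulators lay between -0.06 and 0.06, although the arrays of *SCH9* were far apart there (-0.29 and 0.41).

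Channel intensities were also set on a common scale over the 18 arrays, which gives a log2 level for each strain and treatment. Treatments other than rapamycin were not hybridized against untreated cells, so these levels are compared between arrays and are less certain than ratios. *RAP1* had the widest span, 1.52 in wild-type and 1.69 in *med20Δ*. In wild-type its mean level was highest with heat, at 9.60 (9.33 to 9.86 over 2 channels), then in untreated cells, at 9.29 (9.02 to 9.69 over 4 channels), and with tunicamycin, at 9.12 (8.43 to 9.81). Lower levels were found with hydrogen peroxide (8.69), after the diauxic shift (8.46), with rapamycin (8.25, from 7.94 to 8.63) and with CPZ (8.08, from 8.07 to 8.09). Of neighbours in this order, only hydrogen peroxide and the diauxic shift did not overlap. The untreated and the rapamycin channels did not overlap in either strain, and in *med20Δ* the order was the same apart from the diauxic shift (8.80), which lay above hydrogen peroxide (8.53).

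The level of *SFP1* in wild-type ran from 8.84 with CPZ (8.71 to 8.97) through 8.62 after the diauxic shift, 8.52 with rapamycin, 8.50 with heat, 8.16 in untreated cells and 8.06 with tunicamycin to 7.66 with hydrogen peroxide (7.61 to 7.72). Only the last step was between channels that did not overlap. In *med20Δ* the level was highest after the diauxic shift (8.52) and lowest with tunicamycin (7.78), no neighbours were apart, and the span was 0.74 against 1.18 in wild-type. For *FHL1* the highest mean level was with tunicamycin in both strains. Its channels there lay far apart (8.17 to 9.27 in wild-type, 8.14 to 9.02 in *med20Δ*) and overlapped those of the next treatment. The lowest was with rapamycin in wild-type (7.89), overlapping hydrogen peroxide, and with hydrogen peroxide in *med20Δ* (7.53). *HMO1* was highest in untreated cells (10.73 in wild-type, 10.90 in *med20Δ*) and lowest after the diauxic shift (9.55 and 9.89). Its untreated channels in wild-type ran from 9.81 to 11.35 and no neighbours were apart there. In *med20Δ* only rapamycin and heat, as neighbours, did not overlap. *IFH1* was highest with heat in both strains, but single channels there ran from 9.76 to 12.17 and no neighbours were apart. *SCH9* spanned 0.70 in wild-type and 0.59 in *med20Δ*, and *TOR1* 0.34 and 0.52. The spans of *TOR2* were 1.05 and 0.58, with its highest level after the diauxic shift in wild-type (9.05) and with heat in *med20Δ* (8.94). No neighbours of *TOR2* were apart in either strain.

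**Figure D4:**
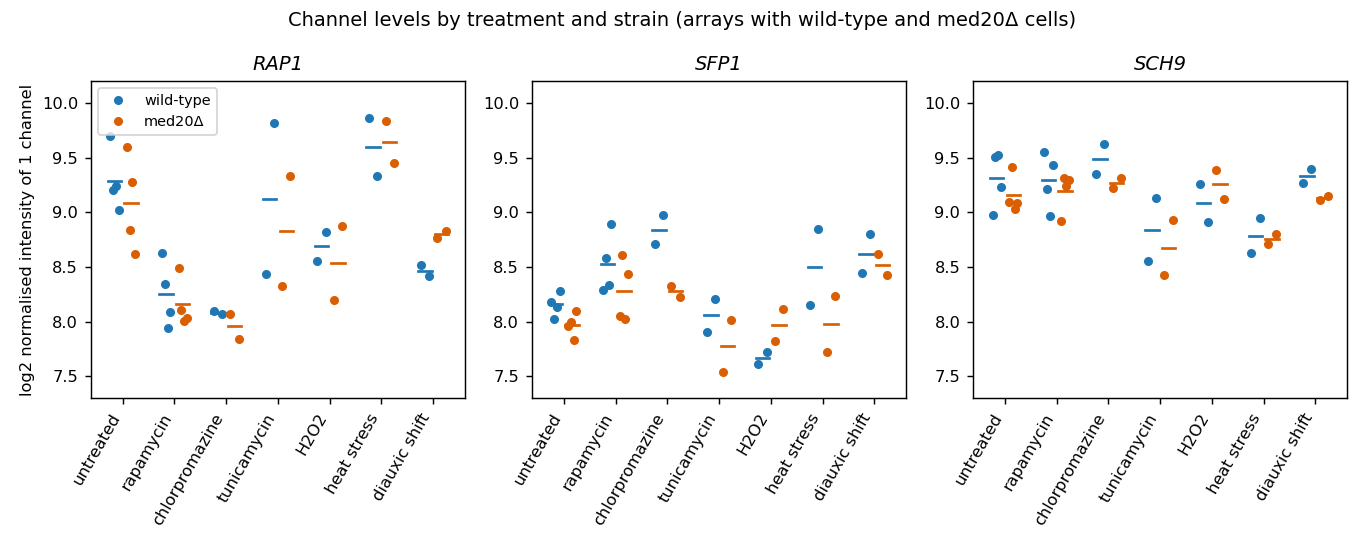
Log2 normalised intensity of single channels by treatment for *RAP1*, *SFP1* and *SCH9* in wild-type (blue) and *med20Δ* (orange), with bars at the mean, over the 18 arrays with these strains. *RAP1* runs from 8.08 with CPZ to 9.60 with heat in wild-type, and *SCH9* spans 0.70.

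A further 92 genes of the same pathways were followed in 8 lists. These hold subunits of the TOR complexes and the rapamycin receptor, inputs to TOR complex 1, its phosphatase branch, the Ras and protein kinase A pathway, partners of Ifh1, partners of Rap1 at other genes, other factors at ribosome genes, and relatives of the regulators. With rapamycin 5 of 83 measured were past 2-fold in wild-type (4 higher, 1 lower) and 5 of 81 in *med20Δ* (3 higher, 2 lower). Of all genes 10.1% and 8.76% were past 2-fold, counted without the brightness limit that the list genes had to meet. By limma 10 of the 83 were higher and 13 lower in wild-type. In *med20Δ* 6 of the 81 were higher and 13 lower. Of all genes 29.3% and 26.3% passed limma. Medians of the lists with rapamycin lay between -0.24 and 0.17 in wild-type, beside 0.00 over all genes.

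*MAF1*, the repressor of RNA polymerase III, was higher with rapamycin at 1.80 (1.81, 1.80) in wild-type and 1.30 (0.99, 1.61) in *med20Δ*. *PPH21*, a catalytic subunit gene of protein phosphatase 2A, was at 1.39 (1.49, 1.28) and 1.59 (1.54, 1.63). *PDE1*, which encodes a cyclic AMP phosphodiesterase, was at 1.59 (1.67, 1.51) and 1.01 (1.17, 0.84). These 3 genes were higher on all 4 arrays. *FKH1*, a forkhead factor gene of the cell cycle, was lower at -1.61 (-1.46, -1.76) and -1.30 (-1.19, -1.40), and *SAP155*, whose product binds the phosphatase Sit4, passed 2-fold in *med20Δ* only, at -1.10 (-0.87, -1.34). Whether their responses differed between the strains was not tested. Between the strains *PDE1* was lower in *med20Δ* with rapamycin, at -1.16 (-1.20, -1.12), and with CPZ, at -1.16 (-1.06, -1.26).

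*KOG1* (YHR186C), which encodes the Raptor subunit of TOR complex 1, passed 2-fold in 5 of the 7 comparisons of *med20Δ* with wild-type. It was lower in untreated cells, at -1.67 (-1.07, -2.26), with heat, at -1.23 (-1.09, -1.37), after the diauxic shift, at -1.18 (-0.65, -1.72), and with CPZ, at -1.18 (-0.97, -1.39). It was higher with hydrogen peroxide, at 1.08 (0.78, 1.38). With tunicamycin *KOG1* was at -0.97 (-0.89, -1.05), short of 2-fold. With rapamycin *KOG1* was higher in wild-type, at 1.15 (0.68, 1.62), and near 0 in *med20Δ*, at 0.01 (-0.01, 0.03). Its derived ratio between the treated strains was -2.81 but the direct ratio was -0.93 (-0.07, -1.78), and replicate 2 was further from 0 in 7 of 7 comparisons of *med20Δ* with wild-type. In *med16Δ*, *med31Δ* and *cycCΔ* it lay between -0.12 and 0.09.

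The other list genes past 2-fold were all in comparisons of *med20Δ* with wild-type under stress. With hydrogen peroxide *TPK2*, a catalytic subunit gene of protein kinase A, was at 1.57 (1.12, 2.02), and the HMG-box genes *NHP6A* and *NHP6B* were at -1.28 (-0.25, -2.32) and -1.14 (-0.59, -1.69). These last are near-identical paralogs whose transcripts may hybridize to both spots, and their arrays lay far apart. With heat *FPR1*, the gene of the rapamycin receptor, was at 1.18 (1.28, 1.07) and *IRA2*, a negative regulator of Ras, at 1.06 (0.71, 1.41).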

How the data were processed

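The strain, treatment, dye and replicate number of each array came from its labels. The authors deposited, for each of 6912 spots, foreground and local background intensity in Cy5 and Cy3 without background subtraction. The deposited files further hold log10 ratios of Cy5 to Cy3, 1 raw and 1 normalized by the authors with a method they cite. The normalized column's array medians were -0.013 to 0.017, so it is centered near 0, and details of the method are not given in the sources used here. The deposited series table equals it. The image software and the meaning of flags are not stated.

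Here, intensities were corrected with normexp (offset 50) and log2 ratios normalized within array by loess (limma 3.58.1, R 4.3.3), which draws ratios of dim spots toward 0. Left out were 576 control spots and any spot whose flag was not 1 (309 to 622 ORF spots per array). Ratios were averaged over a pair when both arrays gave one. Levels came from the loess-normalized channels after Aquantile scaling over the 18 arrays. Counts, medians and list summaries used Python 3.11.15 with pandas 2.3.3, numpy 2.4.6 and matplotlib 3.10.9. Symbols came from the R64 gene table, where 5801 ORFs matched. RP genes were taken by symbol. The procedure was run on simulated data with independent noise. That simulation holds no dye offsets of single genes and no difference between array sets, so it does not cover these.

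The members and lists were chosen with earlier results of these data known. Named were all 9 members, list genes past 2-fold with both arrays on 1 side (at most 3 per list and comparison), and the deleted genes. Genes of like pattern were to be named for members spanning 1 or more on the log2 scale over the comparisons, and none did (largest 0.98). Alternatives were no background correction, local subtraction, median centering, loess outside the RP and ribosome biogenesis lists, the authors' ratios, dimmest 25% left out, flagged spots kept, either array left out, other call rules, and limma with each array a sample, with a replicate block or a dye term. Chosen after seeing the data were limma without the 6 arrays and the authors' ratios above unnamed spots only.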

Additional observations from a re-analysis of the deposited data

Results flagged for a closer look

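For 2 genes the rapamycin response had opposite signs in the strains on all 4 arrays, as it had for 8.57% of all genes. The responses differed by -0.43 (*med20Δ* minus wild-type) for *IFH1* and 0.39 for *HMO1*. Neither difference passed limma (adjusted p = 0.57 and 0.70), and one *HMO1* array of wild-type was at -0.05.

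Some regulators had both arrays on one side of 0 in 1 comparison of *med20Δ* with wild-type and both on the other side in another. The distance between the extreme comparisons was 0.87 for *SFP1* (hydrogen peroxide minus CPZ), 0.74 for *TOR2* (CPZ minus diauxic shift), 0.71 for *HMO1* (untreated minus heat), 0.63 for *RAP1* (diauxic shift minus tunicamycin), 0.59 for *IFH1* (hydrogen peroxide minus rapamycin), 0.46 for *FHL1* (untreated minus hydrogen peroxide) and 0.39 for *SCH9* (hydrogen peroxide minus CPZ). Among deletion strains after rapamycin it was 0.33 for *IFH1* (*med16Δ* minus *med20Δ*), where *med16Δ* rests on 2 of 4 channels above the unnamed spots, and 0.15 for *TOR1* (*med31Δ* minus *med20Δ*). These differences were not tested, and the extremes were picked from several comparisons.

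The *CRF1* spot, flagged on all 18 arrays of wild-type and *med20Δ*, was bright there. Read in spite of the flag, wild-type gave a rapamycin log2 ratio of -0.31 (-0.20, -0.41), and *med20Δ* gave -0.85 (-0.51, -1.19). Between the strains, untreated cells gave -0.42 (0.04, -0.88), whereas treated cells compared directly gave 0.24 (0.49, -0.01). A ratio of the treated strains derived from the other values would lie below 0, unlike the direct one. Whether the responses of *CRF1* differed was not tested. Under the other treatments the strain ratios ran from -0.27 (diauxic shift) to 0.32 (heat). What the flag marks is not stated, and of 509 ORF spots flagged on all of these arrays, 371 were flagged on none of the other 6.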

How the results depend on the processing

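The number of regulators past 2-fold was 0 in each group of comparisons, and it stayed 0 without background correction, with median centering, with the loess outside the RP and ribosome biogenesis lists, with the local background subtracted, without the dimmest 25%, with flagged spots kept and with 2-fold required on both arrays. With the authors' normalized ratios it was 1 in the other Mediator deletions, *IFH1* in *cycCΔ* at 1.20, and 0 when only spots above the unnamed spots were kept. Without replicate 1 or 2 it was 0 to 1 in *med20Δ* relative to wild-type (*HMO1* in untreated cells, 1.02) and 0 to 0 elsewhere. At 1.5-fold it was 1 for wild-type and 1 for *med20Δ* with rapamycin. By limma with each array a sample it was 1 for wild-type with rapamycin, 2 for *med20Δ* with rapamycin and 4 for *med20Δ* relative to wild-type. With the replicate block these were 1, 2 and 5, as *TOR2* with CPZ passed (adjusted p = 0.021, limma), and with a dye term 2, 2 and 7, and 1 in the other deletions. The dye term added *TOR2* in wild-type with rapamycin, with CPZ, after the diauxic shift and in *med31Δ*, and *SFP1* with rapamycin. Without the arrays of the other deletions they were 1, 1 and 4. Replicate numbers were not taken to pair the arrays. Half-differences correlated above 0.1 in 23 of 45 pairs of strain comparisons (median 0.11), and in 0 of 20 pairs of a strain and a rapamycin comparison, where equal numbers have opposite dyes (median -0.27). The sign of single values changed most often with median centering (8 of 99) and without background correction (6 of 99), apart from either array alone. The *RAP1* response ranged from -0.88 to -0.61 in wild-type and -0.87 to -0.51 in *med20Δ*, single arrays included. Spots at the level of the unnamed spots limit *IFH1* and *HMO1* in 3 comparisons.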
